A study of Mus musculus with 8 samples.

Results

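Genes known for their high expression in atrial muscle were followed through RNA sequencing libraries of mouse left ventricular tissue. The 7 genes, of 16994 in the deposited table, are *Myl7*, *Myl4*, *Sln*, *Mybphl*, *Bmp10*, *Dkk3*, and *Stard10*. They were selected on their known atrial enrichment and on their levels in these same 8 libraries, so their values are a description and no test was made of them. Whole-body TIGAR knockout (TKO) mice lack TIGAR, a metabolic enzyme that restrains glycolysis, and were compared with WT mice. At 16 weeks of age, male mice had the left anterior descending coronary artery tied off for good, which causes myocardial infarction (MI), and the hearts were examined 4 weeks later. The infarct, border, and remote zones of the left ventricle were dissected from WT and TKO hearts, and left ventricle without a zone label was taken from both genotypes as well. For the left ventricle libraries, the surgery and age are not given in the sources used here. There was 1 library for each of the 2 genotypes and 4 regions. RNA from 3 mice was pooled for each infarct zone library, and the number of mice behind the other libraries is not given in the sources used here, nor is the strain of the WT mice. The study's methods describe removal of the atria for heart tissue in general, and that step is not described for the dissection of the zones.

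Total estimated counts lay between 27429240 and 33799249 per library. *Tigar* had 1066 to 2215 counts in the WT libraries and 51 to 87 in the TKO libraries. Levels are given as CPM, counts relative to library size, after scaling by the TMM method of edgeR, and ratios between 2 libraries carry an exact 95% interval that covers counting error only. Without replicates, the spread between mice is not known for any value. The muscle genes that define ventricle were abundant in all 8 libraries. *Myl2*, the ventricular regulatory light chain, had 72195 to 206371 counts, and *Myl3*, the ventricular essential light chain, had 55981 to 181071. In bulk tissue, fewer cells of a type and less RNA per cell cannot be told apart.

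Atrial and ventricular muscle share most of their contractile machinery but use different versions of some proteins. The myosin head is gripped by an essential and a regulatory light chain, and the atrial forms are encoded by *Myl4* and *Myl7*. *Sln* encodes sarcolipin, a small membrane peptide that restrains the calcium pump SERCA, a role that phospholamban (*Pln*) fills in ventricle. *Mybphl* encodes a myosin-binding protein H–like protein of atrial muscle and the conduction system. *Bmp10* encodes a secreted bone morphogenetic protein, which in the adult heart is made chiefly in the right atrium. *Dkk3* encodes a secreted glycoprotein of the Dickkopf family that fibroblasts and smooth muscle also make, and *Stard10* a lipid transfer protein that is also made in liver and epithelia.

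*Myl7* (ENSMUSG00000020469) lies on the minus strand of chromosome 11 of GRCm38 from 5896637 to 5898782, and *Myl4* (ENSMUSG00000061086) on the plus strand of the same chromosome from 104550663 to 104595753. *Sln* (ENSMUSG00000042045) lies on chromosome 9 from 53850164 to 53854560, *Mybphl* (ENSMUSG00000068745) on chromosome 3 from 108364911 to 108380057, and *Bmp10* (ENSMUSG00000030046) on chromosome 6 from 87428994 to 87437677. *Dkk3* (ENSMUSG00000030772) and *Stard10* (ENSMUSG00000030688) lie on chromosome 7, from 112116017 to 112159057 and from 101317086 to 101346626. The 250 bases before the annotated start are shown for *Myl7*, to which the other genes are related below, for *Mybphl*, whose proportion to *Myl7* was alike in the remote zones, and for *Bmp10*, whose proportion was not. The sequences are those of RefSeq (GRCm38.p6), read 5′ to 3′ on the strand of the gene, at chr11:5898783-5899032 on the minus strand, chr3:108364661-108364910 on the plus strand, and chr6:87428744-87428993 on the plus strand. Capitals mark matches to 6 motifs of heart and general promoter factors.
Myl7: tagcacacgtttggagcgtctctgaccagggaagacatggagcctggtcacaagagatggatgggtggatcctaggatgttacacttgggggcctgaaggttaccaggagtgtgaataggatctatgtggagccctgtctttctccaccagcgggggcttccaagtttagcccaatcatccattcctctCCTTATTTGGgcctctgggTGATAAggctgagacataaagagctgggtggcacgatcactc
Mybphl: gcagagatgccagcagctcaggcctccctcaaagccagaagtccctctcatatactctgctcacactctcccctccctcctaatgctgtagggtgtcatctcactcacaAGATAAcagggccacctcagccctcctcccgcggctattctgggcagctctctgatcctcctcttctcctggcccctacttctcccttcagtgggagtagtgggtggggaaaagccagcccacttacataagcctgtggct
Bmp10: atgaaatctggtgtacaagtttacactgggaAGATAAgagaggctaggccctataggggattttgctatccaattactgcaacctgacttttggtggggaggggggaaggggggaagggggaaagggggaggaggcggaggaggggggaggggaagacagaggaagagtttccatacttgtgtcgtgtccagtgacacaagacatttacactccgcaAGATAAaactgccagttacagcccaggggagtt
All motifs were searched on both strands. The GATA motif, bound by the GATA factors of heart muscle, was AGATAA with TGATAA allowed in its place. Its last base could also be G, as in AGATAG and in the other such form. The T-box motif, that of TBX5 and its relatives, was GGTGTG. For NKX2-5, a transcription factor of early and adult heart, the letters were TNAAGTG. The TATA motif of core promoters was TATAAA, and the remaining motifs were those of MEF2 and the SRF CArG box. Each of the 3 printed promoters held a GATA match, at 42 to 37 bases before the start in *Myl7*, at 141 to 136 in *Mybphl*, and at 219 to 214 and 33 to 28 in *Bmp10*. A CArG box match in *Myl7* lay 61 to 52 bases before the start. Promoter sequence was listed for 5 of the 7 genes, and a GATA match was in 4 of these 5, against 26.5% of all 32851 promoters of this length. The window of *Stard10* held 1 such match and a T-box match (16.3% of all promoters), and that of *Myl4*, a gene with 5 annotated coding transcripts and further starts downstream, held no match to the 6 motifs. A CArG box match was in 1.47% of all promoters. A match is a description of letters and not of binding.

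Across the 8 libraries, 6 of the 7 genes were highest in the WT remote zone and next highest in the TKO remote zone, and *Dkk3* was highest in the WT infarct zone. *Myl7*, the atrial regulatory light chain, had 171.8 CPM in the WT remote zone and 67.5 in the TKO remote zone. Its other levels were 16.1 and 15.9 in the infarct and border zones of WT, 9.14 in the TKO border zone, 5.87 in the TKO left ventricle, 5.55 in the WT left ventricle, and 1.23 CPM in the TKO infarct zone. The 2 remote zone libraries thus stood above the other 6, and of the neighbors in this order only the WT infarct and border zones (1.01-fold, 0.900 to 1.14) and the left ventricles (1.06-fold) had ratios whose counting interval held 1. *Myl4*, the atrial essential light chain, had 279.1 CPM in the WT remote zone, 110.4 in the TKO remote zone, 34.6 and 27.9 in the infarct and border zones of WT, 13.6 in the TKO border zone, 11.5 in the TKO left ventricle, 8.94 in the WT left ventricle, and 4.95 CPM in the TKO infarct zone. The order of the libraries was the same as for *Myl7*, and each neighboring pair differed by more than its counting interval. Per kilobase of the longest annotated coding transcript, *Myl4* and *Myl7* stood at 295.9 and 291.1 CPM in the WT remote zone and at 117.1 and 114.3 in the TKO remote zone.

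*Sln*, the sarcoplasmic reticulum peptide, had 80.9 CPM in the WT remote zone, 24.4 in the TKO remote zone, 7.09 and 6.95 in the WT infarct and border zones, 3.27 in the TKO border zone, 1.89 and 1.13 in the TKO and WT left ventricles, and 0.280 CPM, from 10 counts, in the TKO infarct zone. The levels of *Mybphl* were 25.4 CPM in the WT remote zone, 9.47 in the TKO remote zone, 2.77 and 2.11 in the WT infarct and border zones, 1.15 in the TKO border zone, 0.772 and 0.365 in the TKO and WT left ventricles, and 0.336 in the TKO infarct zone. Both genes had the order of libraries of *Myl7*. The WT infarct and border zones could not be told apart by counting for either gene, and for *Mybphl* neither could the TKO border zone, the left ventricles, and the TKO infarct zone as neighbors in this order. *Bmp10* had 2134 counts in the WT remote zone (70.1 CPM), 305 in the TKO remote zone (10.1 CPM), and 6 to 34 counts in each of the other 6 libraries, whose neighbors in order all had ratios with an interval that held 1. The WT remote zone had 320.3 times its level in the lowest library (147 to 874), and for *Sln* this was 289.1 times, from 10 counts in the lowest library, so the 2 spans could not be ranked at this depth.

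*Dkk3* and *Stard10* departed from the other 5 genes. *Dkk3* had 274.6 and 206.2 CPM in the WT and TKO infarct zones, 103.0 and 45.3 in the remote zones, 59.8 and 28.8 in the border zones, and 10.1 and 13.1 in the left ventricles. The 7 genes of the fibroblast list, among them collagens and *Postn*, had their highest summed levels in the same 2 libraries, 7835 CPM in the WT infarct zone and 6540.5 in the TKO infarct zone, against 825 to 2851 in the other 6. In the remote zones, where *Dkk3* stood above the border zones, the fibroblast list stood below them, at 1524 against 2851 CPM in WT and 975.3 against 1524 in TKO. The 6 genes of the smooth muscle list were also highest in the infarct zones, at 777.2 CPM in WT and 537.3 in TKO. Their remote zone level was 317.8 CPM against 303.0 in the border zone in WT, and 346.6 against 360.1 in TKO. The part of fibroblasts and smooth muscle in the *Dkk3* levels was not tested. *Stard10* varied least, between 15.2 CPM (TKO infarct zone) and 48.8 (WT remote zone), with 35.6 in the TKO remote zone, 18.1 in both border zones, and 15.6 in the WT infarct zone, and stood at 28.8 and 28.7 CPM in the WT and TKO left ventricles. Its level in ventricle was therefore not low, unlike that of *Bmp10* or *Mybphl*.

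**Figure D1:**
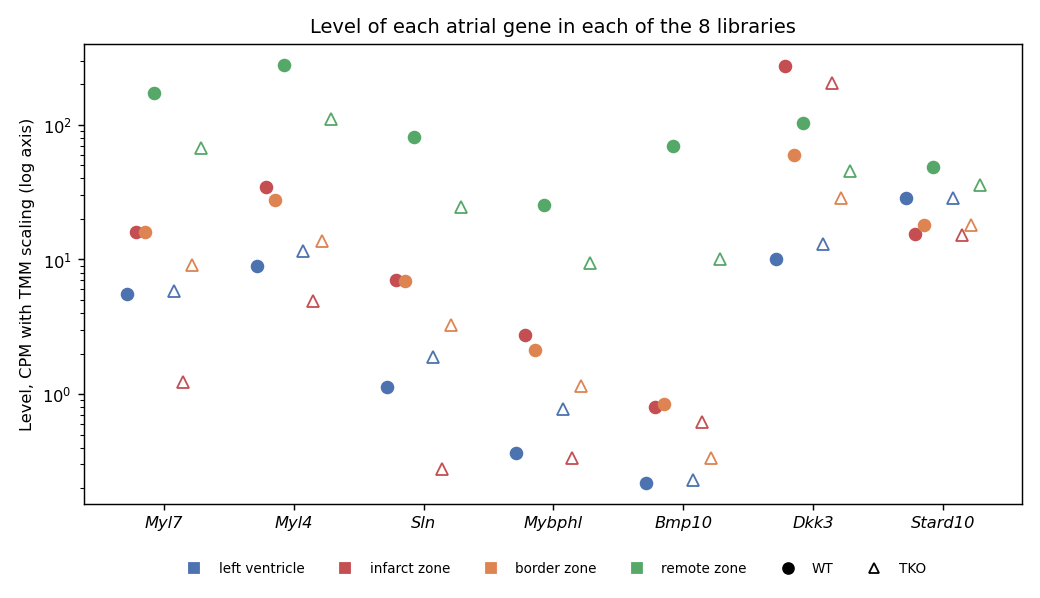
Level of each of the 7 genes in each library, in CPM with TMM scaling on a log axis, with filled circles for WT, open triangles for TKO, and color for the region. For *Myl7*, *Myl4*, *Sln*, *Mybphl*, and *Bmp10* the WT remote zone is highest (171.8 CPM for *Myl7*) and the TKO remote zone next (67.5 CPM), whereas *Dkk3* is highest in the infarct zones.

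Remote zone levels were divided by those of the left ventricle within each genotype to ask how far the genes stood above ventricle without a zone label. In WT, *Bmp10* was 320.3-fold higher (95% interval from counting error, 147 to 874), and *Sln* 71.5-fold (50.2 to 105). *Mybphl* was 69.5-fold higher (37.6 to 146), *Myl4* 31.2-fold (27.5 to 35.6), and *Myl7* 31.0-fold (26.4 to 36.6). *Dkk3* was 10.2-fold higher (8.98 to 11.5) and *Stard10* 1.69-fold (1.55 to 1.85). At least a 2-fold difference after a prior count of 2 was found for 6 of the 7 genes, all higher, against 3.4% of the 12999 genes tested (mean CPM of 1 or more) that were higher and 2.08% that were lower. The median ratio was 31.0 for the 7 genes and 1.01 for all genes. In TKO, the same 6 genes were at least 2-fold higher, against 3.06% of all genes higher and 1.52% lower, with a median of 11.3 for the 7 genes and 0.988 for all genes. The TKO ratios were 43.7 for *Bmp10* (19.9 to 120), 12.9 for *Sln*, 12.3 for *Mybphl*, 11.5 for *Myl7*, 9.57 for *Myl4*, 3.45 for *Dkk3*, and 1.24 for *Stard10* (1.13 to 1.37). The muscle genes that atria and ventricles share did not follow: of 10 such genes, 0 were at least 2-fold different in either genotype, and their median ratio was 0.807 in WT and 0.859 in TKO. Genes of other tissues differed in the same WT comparison. The WT remote zone stood at least 2-fold higher for all 5 lung genes (median 12.2), as it did for 6 of 8 mesothelial genes (median 2.61), while the 3 adipocyte genes tested were lower (median 0.0729). Adipocyte genes summed to 74.1 CPM in the WT left ventricle and to 1.20 in the TKO left ventricle. In the TKO remote zone, 0 lung genes passed 2-fold upward and 1 downward, 3 mesothelial genes were higher and 1 lower, and the 3 adipocyte genes were higher. The part of these tissues in the ratios was not tested.

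The border zone stood above the left ventricle in WT for 6 of the 7 genes, each at least 2-fold (5.39% of all genes higher, 1.83% lower). The WT ratio was 2.87 for *Myl7* (2.39 to 3.47), 3.12 for *Myl4*, 6.14 for *Sln* (4.20 to 9.26), 5.78 for *Mybphl*, 3.85 for *Bmp10*, and 5.90 for *Dkk3*, whereas *Stard10* was at 0.627 (0.562 to 0.700). In TKO, only *Dkk3* of the 7 passed 2-fold, with 2.19 (4.38% of all genes higher, 1.68% lower), and the ratios of *Myl7*, *Myl4*, *Sln*, *Mybphl*, and *Bmp10* lay between 1.18 and 1.73. The intervals of *Mybphl* (0.830 to 2.72) and *Bmp10* (0.479 to 4.87) reached 1 there, so a difference was not detectable at this depth. These ratios share the left ventricle library of each genotype with those of the remote zone.

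The infarct zone went opposite ways in the genotypes for 4 of the genes. The share of all genes that went opposite ways was not computed. In WT, *Myl7* was 2.91-fold higher than in the left ventricle (2.43 to 3.49), *Myl4* 3.87-fold, *Sln* 6.27-fold (4.32 to 9.39), and *Mybphl* 7.58-fold. In TKO, the ratios were 0.210 for *Myl7* (0.146 to 0.295), 0.429 for *Myl4*, 0.148 for *Sln* (0.0668 to 0.295), and 0.435 for *Mybphl* (0.194 to 0.934). *Bmp10* and *Dkk3* were higher in both genotypes, with 3.67 and 27.1 in WT and 2.66 and 15.7 in TKO, and *Stard10* stood at 0.540 and 0.531. At least 2-fold differences were counted for 6 genes in WT, all higher (18.8% of all genes higher, 14.8% lower), and for 2 higher and 4 lower in TKO (16.2% and 7.62%). These ratios depended on the scaling of the infarct libraries. With total counts alone, 2 genes in place of 4 were at least 2-fold lower in TKO, *Myl4* was at 0.623 and *Mybphl* at 0.631 there, *Myl7* was at 5.16 in WT, and *Stard10* at 0.959 and 0.771. With cardiac muscle genes as library size, 2 were lower as well, with *Myl4* at 0.877 and *Mybphl* at 0.889 in TKO, *Myl7* was at 12.8 in WT, and *Stard10* turned to 2.37 and 1.09. For the 10 shared cardiac muscle genes the medians were 0.245 in WT and 0.491 in TKO. Per length, *Myl7* was at 1.42% of *Myl2* in the WT infarct zone and at 0.0579% in the TKO infarct zone. Genes of other tissues were present in the infarct libraries. The 10 fast skeletal muscle genes, among them *Myl1*, had 10642 and 2182 counts in the WT infarct and border zones and 574 to 1570 in the other 6 libraries. *Sln* is a skeletal muscle gene as well, and *Mylpf* of the list was at 0 in the TKO left ventricle. Between genotypes in the infarct zone, all 10 were at least 2-fold lower in TKO, with a median of 0.0246. The 5 lung genes had 7134 counts in the WT and 15286 in the TKO infarct zone, 1134 in the WT remote zone, and 47 to 232 elsewhere. In the border and infarct zones of WT, the skeletal muscle list lay at 70.8 and 251.6 CPM. *Myl7* lay there at 15.9 and 16.1 CPM, *Sln* at 6.95 and 7.09, *Mybphl* at 2.11 and 2.77, and *Myl4* at 27.9 and 34.6. The part of these tissues in the levels of the atrial genes was not tested.

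**Figure D2:**
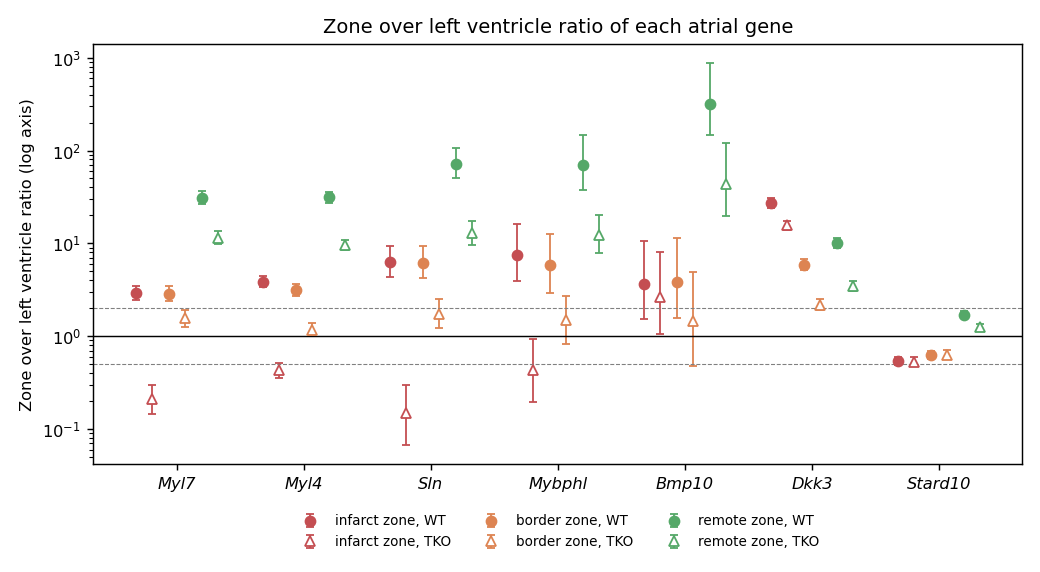
Ratio of each zone over the left ventricle within a genotype for each gene, on a log axis, with bars for the 95% counting-error interval and dashed lines at a 2-fold difference. The remote zone ratios are the highest of the 3 zones for 6 genes in both genotypes, all but *Dkk3* (320.3 for *Bmp10* in WT), and in the infarct zone *Myl7*, *Myl4*, *Sln*, and *Mybphl* lie above 1 in WT and below 1 in TKO.

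TKO was next compared with WT within each region, the comparison the study was designed for. In the remote zone all 7 genes were lower in TKO, 6 of them at least 2-fold, against 2.36% of all genes lower and 1.17% higher. The TKO over WT ratio was 0.393 for *Myl7* (0.373 to 0.413), 0.396 for *Myl4* (0.380 to 0.412), and 0.373 for *Mybphl* (0.325 to 0.428). These 3 intervals overlapped one another. *Sln* was at 0.302 (0.278 to 0.328), *Bmp10* at 0.144 (0.128 to 0.163), *Dkk3* at 0.439 (0.412 to 0.468), and *Stard10* at 0.730 (0.674 to 0.790). The median ratio of the 7 genes was 0.393, whereas it was 0.993 for all genes, 1.07 for the 7 ventricular genes, and 1.19 for the 10 shared cardiac muscle genes. Summed lung genes were at 37.3 CPM in the WT and 2.29 in the TKO remote zone, and skeletal muscle genes at 51.6 and 28.2 CPM with a median ratio of 0.904 (1 of 10 at least 2-fold higher and 1 lower), while adipocyte genes were at 4.50 and 5.48 CPM, with *Plin1* at 0 in both. Mesothelial genes were at 29.8 and 15.4 CPM, with *Msln* at 0 in TKO, and 4 of the 8 were at least 2-fold lower in TKO. All 5 lung genes were at least 2-fold lower there too. The part of these tissues in the remote zone ratios was not tested.

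In the border zone, 4 of the 7 genes were at least 2-fold lower in TKO and 0 higher (3.25% of all genes lower, 1.23% higher), with a median of 0.490 against 0.999 for all genes. *Myl7* had a ratio of 0.573 (0.492 to 0.666), *Myl4* 0.489 (0.433 to 0.550), *Sln* 0.471 (0.367 to 0.601), *Mybphl* 0.543 (0.348 to 0.835), and *Bmp10* 0.400 (0.172 to 0.856). The intervals of these 5 genes overlapped. *Dkk3* was at 0.481 (0.443 to 0.522), and the interval of *Stard10* held 1 (0.890 to 1.13). Of the 10 skeletal muscle genes, 9 were at least 2-fold lower in the TKO border zone, with a median of 0.108, and the part of that tissue was not tested. In the infarct zone, 4 genes were lower by at least 2-fold and 0 were higher (1.45% lower, 2.42% higher): *Sln* at 0.0394 (0.0187 to 0.0736), *Myl7* at 0.0763 (0.0550 to 0.104), *Mybphl* at 0.121 (0.0610 to 0.220), and *Myl4* at 0.143 (0.122 to 0.167). *Bmp10* was at 0.766 (0.427 to 1.35), *Dkk3* at 0.751 (0.729 to 0.773), and *Stard10* at 0.978 (0.872 to 1.10). The 10 shared cardiac muscle genes went the other way there, with all 10 above 1 and a median of 1.99. With those genes as library size, all 7 were at least 2-fold lower, with *Bmp10* at 0.362, *Dkk3* at 0.355, and *Stard10* at 0.463.

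In the left ventricle, 0 of the 7 genes were at least 2-fold different between the genotypes (1.95% of all genes higher, 3.56% lower). *Mybphl* had a ratio of 2.12 without a prior count, from 20 and 10 counts (0.945 to 5.06), *Sln* 1.67 (1.05 to 2.71), and *Myl4* 1.29 (1.09 to 1.54). *Myl7* and *Bmp10* were both at 1.06, with intervals that held 1. The median of the 7 genes was 1.29, against 1.01 for all genes. *Dkk3* was at 1.29 (1.10 to 1.52), so its interval lay wholly above 1, as did those of *Sln* and *Myl4*. None of the 7 had an interval wholly below 1 here, whereas in the remote zone all 7 did. The share of all genes with an interval wholly on 1 side of 1 was not computed.

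**Figure D3:**
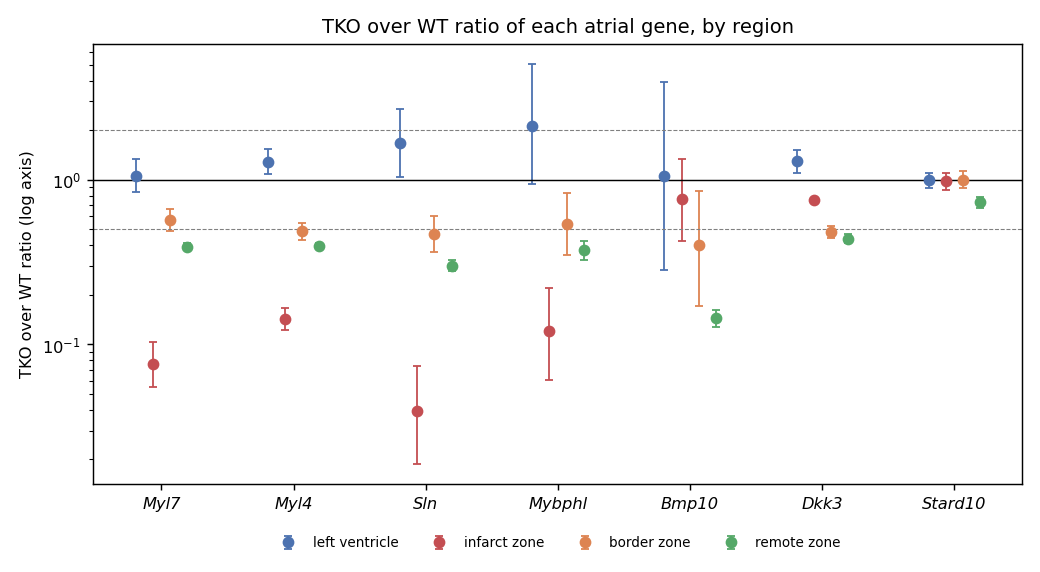
TKO over WT ratio of each gene in each region, on a log axis, with bars for the 95% counting-error interval and dashed lines at a 2-fold difference. In the remote zone all 7 genes lie below 1 (0.393 for *Myl7*), and in the infarct zone *Sln*, *Myl7*, *Mybphl*, and *Myl4* lie lowest (0.0394 for *Sln*).

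The proportions of the genes to one another were described by expressing each per 100 counts of *Myl7* in the same library. Which tissue the counts came from was not tested. *Myl4* had 162 per 100 in the WT remote zone (157 to 168) and 164 in the TKO remote zone (155 to 173). It had 175 and 149 in the border zones of WT and TKO, and 161 and 197 (161 to 241) in the left ventricles of WT and TKO, with 215 (196 to 235) in the WT and 402 (288 to 573) in the TKO infarct zone. *Mybphl* had 14.8 in the WT remote zone (13.7 to 15.9), 14.0 in the TKO remote zone (12.4 to 15.9), 13.2 and 12.5 in the WT and TKO border zones, and 17.2 (14.0 to 20.9) and 27.3 (13.1 to 52.5) in the infarct zones of WT and TKO. In the remote and border zones the intervals of *Mybphl* thus overlapped, as did those of *Myl4* between WT and TKO. The left ventricles held 6.58 (3.09 to 12.4) and 13.2 *Mybphl* counts per 100 in WT and TKO. *Sln* had 47.1 in the WT remote zone (44.9 to 49.4) and 36.2 in the TKO remote zone (33.2 to 39.4), intervals that did not overlap. It had 43.6 and 44.0 in the WT border and infarct zones, 35.8 in the TKO border zone, 20.4 (13.4 to 30.2) and 32.2 in the left ventricles of WT and TKO, and 22.7 (10.2 to 45.8) in the TKO infarct zone.

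*Bmp10* did not keep a fixed proportion. It had 40.8 per 100 *Myl7* counts in the WT remote zone (38.8 to 42.9), 15.0 in the TKO remote zone (13.3 to 16.9), 5.30 and 3.69 in the WT and TKO border zones, and 3.95 in both left ventricles. In the WT infarct zone it had 4.99 (3.42 to 7.04), against 50 in the TKO infarct zone, from 22 *Bmp10* and 44 *Myl7* counts (28.5 to 85.2). The proportion thus varied between the remote zones of the genotypes, in which *Myl4* and *Mybphl* held theirs.

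**Figure D4:**
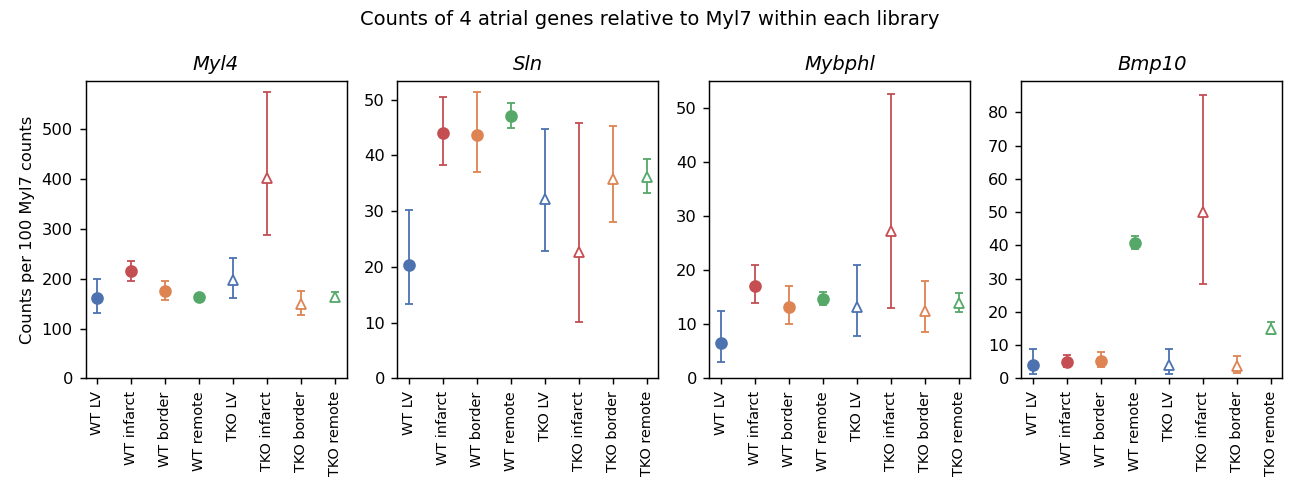
Counts of *Myl4*, *Sln*, *Mybphl*, and *Bmp10* per 100 counts of *Myl7* within each of the 8 libraries, on linear axes that start at 0, with bars for the 95% counting-error interval. *Myl4* stands at 162 and 164 in the remote zones of WT and TKO, whereas *Bmp10* stands at 40.8 and 15.0.

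The remote zone amount was next taken as the level there minus that in the left ventricle of the same genotype, and the TKO amount was given as a percentage of the WT amount. Whether the left ventricle level is what ventricle itself expresses in the remote zone was not tested. In WT, *Stard10* was at 28.8 CPM in the left ventricle and 18.1 in the border zone, and *Dkk3* at 10.1 and 59.8. The percentage was 37.0% for *Myl7* (34.9% to 39.2%), 36.6% for *Myl4* (34.9% to 38.3%), 34.8% for *Mybphl* (29.5% to 40.0%), 34.8% for *Stard10* (19.0% to 50.7%), and 34.6% for *Dkk3* (31.3% to 37.9%). These 5 intervals overlapped, while the TKO over WT ratios of *Myl7*, *Dkk3*, and *Stard10* had differed. The genes were chosen with their levels known, so the overlap is a description. *Sln* was at 28.2% (25.7% to 30.8%) and *Bmp10* at 14.2% (12.4% to 15.9%), both below *Myl7* and *Myl4*. With the border zone of the same genotype as the baseline, a choice made after the data were seen, *Myl7*, *Myl4*, *Mybphl*, and *Dkk3* lay between 35.8% and 38.5%, *Sln* was at 28.6%, and *Bmp10* at 14.1%. *Stard10* was at 56.9% (46.8% to 66.9%), so its closeness to the others depended on the baseline.

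Among 15 further genes known to be higher in atrial than in ventricular muscle, 14 reached a mean CPM of 1. Of these, 3 were at least 2-fold higher in the WT remote zone than in the WT left ventricle (3.4% of all genes), with a median of 1.39. In the TKO remote zone 1 was (3.06% of all genes), with a median of 1.20. *Nppa*, which encodes the atrial natriuretic peptide and is also induced in stressed ventricle, was 11.4-fold higher in WT and 1.75-fold in TKO, and its highest level was in the WT infarct zone. *Sbk3*, a kinase gene, was 3.30-fold higher in WT (2.83 to 3.87) and 2.04-fold in TKO (1.69 to 2.48), from 206 to 755 and from 159 to 378 counts. *Cacna2d2*, a calcium channel subunit gene, was 2.71-fold higher in WT (2.08 to 3.58) and 1.52-fold in TKO. The level in the WT remote zone exceeded that in the WT left ventricle by more than its counting interval for 10 of the 15 genes. The share of all genes that did so was not computed. Below the WT left ventricle by more than counting error were *Kcnk3* (-45.9 CPM, standard error 4.11) and *Kcna5* (-12.8 CPM, standard error 1.49). Among the 10 genes, the TKO amount was 37.1% of the WT amount for *Sbk3* (26.9% to 47.3%), 40.1% for *Cacna2d2*, and 23.9% for *Sbk2*. It was 11.7% for *Nppa* (11.1% to 12.3%), 12.1% for *Pam* (7.38% to 16.9%), and 103.8% for *Kcnj3* (75.2% to 132%). *Kcnj5*, *Gja5*, *Nr2f2*, and *Chrm2* were at 81.2%, 30.9%, 23.5%, and 16.9%, with wide intervals. With the border zone as the baseline, *Kcnj3* was at 27.9% (16.2% to 39.7%) and *Pam* at 47.7% (33.8% to 61.6%). The values of these 2 genes thus depended on the baseline, whereas *Sbk3* was at 40.7%, *Cacna2d2* at 37.8%, *Sbk2* at 29.2%, and *Nppa* at 7.25%. The 7 genes were chosen with their levels in these libraries known and these further genes were kept for their WT amount, so the spreads of the 2 groups are not compared. By their TKO over WT ratio in the left ventricle, *Nppa* was highest of the 14, at 1.62, and *Kcna5*, a potassium channel gene, lowest, at 0.446.

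**Figure D5:**
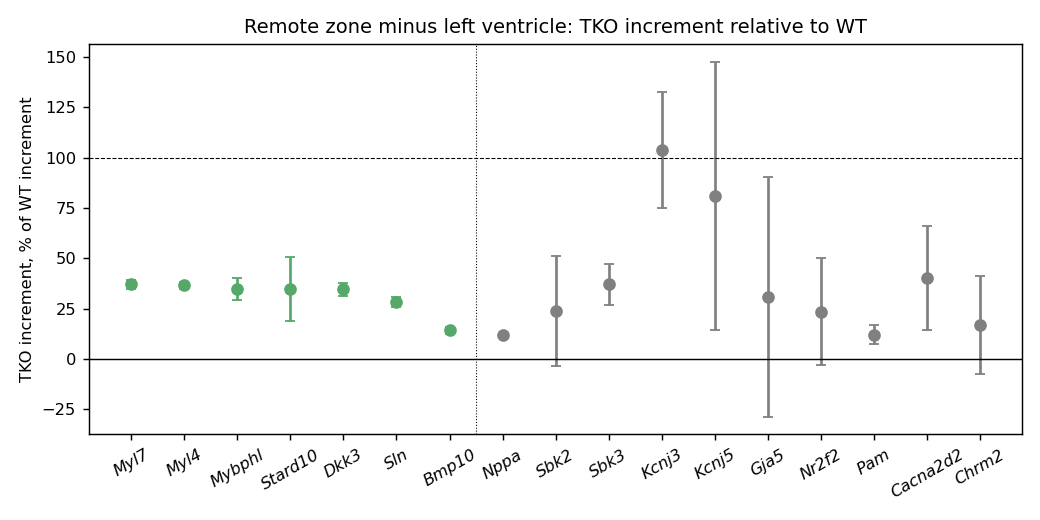
Level in the remote zone minus that in the left ventricle, with the TKO amount as a percentage of the WT amount and bars for the 95% counting-error interval. Green points are the 7 genes and gray points the 10 further atrial genes whose WT amount exceeded its counting interval, and the dashed line marks 100%. Of the 7 genes, 5 lie between 34.6% and 37.0%, with *Stard10* spanning 19.0% to 50.7%. *Sln* lies at 28.2% and *Bmp10* at 14.2%.

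Genes of ventricular muscle served as the counterpart. Per length, *Myl7* stood at 4.62% of *Myl2* in the WT remote zone (4.49% to 4.75%) and at 1.68% in the TKO remote zone (1.61% to 1.75%), against 0.118% and 0.111% in the WT and TKO left ventricles. *Myl4* stood at 4.82% of *Myl3* in the WT remote zone, 1.95% in the TKO remote zone, 0.552% and 0.245% in the border zones, and 0.147% and 0.164% in the left ventricles. For both pairs of light chains, the atrial form was thus a minor share in all 8 libraries, and the remote zone of WT held the largest share. Over the 7 ventricular genes, the median remote zone over left ventricle ratio was 0.952 in WT, with 3 above 1 and 1 at least 2-fold higher (*Myh7*, a myosin heavy chain also induced in stressed ventricle, at 2.47), and 0.895 in TKO, with 0 at least 2-fold different. *Myl2* was at 0.792 in WT and 0.759 in TKO, and *Irx4*, a transcription factor gene of ventricular muscle, was at 1.24 and 0.814. Of 8 sinus node genes, 6 reached a mean CPM of 1, with a median remote zone over left ventricle ratio of 1.17 in WT and 1.44 in TKO. *Hcn4*, the main pacemaker channel gene of the node, had 235 counts in the WT remote zone and 157 in the WT left ventricle, and *Isl1* had 4 and 5.

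The genes whose log2 levels over the 8 libraries were most like the mean of the 7 genes, by Pearson's r, included *Slc16a12* (r = 0.972), *Kcnh7*, *Tmem163*, *Hamp*, *Pop4*, *Sf3b6*, *Kcne1*, *Fbxl4*, and *Nrtn* (r = 0.873). The 8 points share the libraries that set the mean and stand in no independent relation, so r is a measure of likeness only. *Hamp* and *Tmem163* also differed widely. *Hamp*, which encodes hepcidin, had 152 counts in the WT remote zone, 85 in the TKO remote zone, and 1 to 14 in the other 6 libraries. *Tmem163*, which encodes a zinc transporter, had 203 and 54 counts in the remote zones of WT and TKO, 41 and 21 in the infarct zones, and 0 to 8 elsewhere. The mean CPM was 1.14 for *Hamp* and 1.31 for *Tmem163*, close to the limit of 1 for the genes tested. Both reached that limit through their remote zone levels, and both were picked for likeness to a mean that peaks there. *Slc16a12* varied little, from 76 to 171 counts. Of the 7 genes themselves, *Mybphl* was closest to their mean (r = 0.997) and *Dkk3* farthest (r = 0.362). Each of the 7 is part of that mean, so its r is partly built in and is not comparable with those of the other genes.

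A fit over all 8 libraries with the regions as blocks tested genotype for 12999 genes by the quasi-likelihood method of edgeR, with p-values adjusted after Benjamini and Hochberg, and called 0.0769% of genes higher and 0.0615% lower in TKO. This test treats regions as replicates, so it bears on regions and not on mice. The zones are parts of operated hearts, and which mice gave which library is not given in the sources used here, so libraries of 1 genotype may share animals and the p-values may then be too small. Of 81 genes tested from the 11 lists of other tissues and muscle, the further atrial genes included, 0 were called. An unadjusted p under 0.05 in this edgeR test was found for 18 of the 81, and for 2109 of all 12999 genes. DESeq2 called 4 of the 81, namely *Actc1* as higher and *Actn3*, *Col1a1*, and *Postn* as lower in TKO. Over all 12999 genes, DESeq2 called 128 higher and 214 lower. None of the 4 is a further atrial gene. *Myl7* and the genes selected with it were not among the 81 and were given no p-value, so these calls do not bear on them.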

How the data were processed

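Total RNA was sequenced from 8 libraries of left ventricular tissue. Per the study, Trim Galore 0.6.5 trimmed the reads, kallisto 0.46 quantified them on mm10 transcripts, and tximport gave gene values. The deposited values are estimated counts for 16994 genes, rounded and not normalized by the authors. Kallisto shares reads among similar transcripts, so counts are estimates. Ratios were computed with TMM factors of edgeR 4.0.16 in R 4.3.3 (0.866 to 1.54) for genes whose mean CPM was 1 or more, and called at 2-fold after a prior count of 2. Intervals are exact (Clopper-Pearson) at 95%, with those of remote zone amounts by error propagation, and cover counting error only, since reads are not independent molecules where no molecular identifiers were used. A fit across genes with regions as blocks used edgeR's quasi-likelihood test and, as an alternative, DESeq2 1.42.0; it and the intervals were tested on simulated data. Lengths and positions come from GENCODE M21 (GRCm38). Named genes were the 7, list genes by their counts or their left ventricle ratio, and the 10 most like the mean of the 7, of which 1 is not reported here; other genes of the lists were named after their values were seen. The genes and lists were chosen with earlier results of these data known. Python 3.11.15, pandas 2.3.3, numpy 2.4.6, scipy 1.17.1, and matplotlib 3.10.9 were used.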

Additional observations from a re-analysis of the deposited data

Results flagged for a closer look

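For 4 genes, the infarct zone departed from the left ventricle at least 2-fold in opposite directions in the genotypes, with 1 library on each side. The difference between the genotypes was not tested. How many of all genes departed in opposite directions was not computed. The infarct over left ventricle ratio was 3.87 in WT and 0.429 in TKO for *Myl4*, 2.91 and 0.210 for *Myl7*, 6.27 and 0.148 for *Sln*, and 7.58 and 0.435 for *Mybphl*. With total counts alone or with cardiac muscle genes as library size, *Myl4* (0.623 and 0.877) and *Mybphl* (0.631 and 0.889) were no longer 2-fold lower in TKO, whereas *Myl7* (0.304 and 0.429) and *Sln* (0.215 and 0.302) still were. The WT infarct zone also held the most counts of the skeletal muscle list (10642, against 574 in the TKO infarct zone), and its part in these ratios was not tested.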

How the results depend on the processing

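Under other scalings, fold limits, prior counts, and fits, 82 recomputed counts were within 1.5 times the reported one and 5 were not. Of the single values, 403 stayed within their counting intervals, 59 moved outside them, and 0 of those at least 2-fold different changed direction. In the left ventricle, 1 of the 7 genes passed 2-fold between genotypes without a prior count and 2 passed at 1.5-fold, against 0. With the summed counts of 10 shared cardiac muscle genes as library size, all 7 were at least 2-fold lower in the TKO infarct zone, against 4, since those muscle genes were themselves higher there. At 1.5-fold, 4 genes differed between the TKO border zone and left ventricle (3 higher, 1 lower), against 1. With total counts alone or cardiac muscle genes as library size, 2 genes in place of 4 were lower in the TKO infarct zone than in the left ventricle, and with the latter *Stard10* turned from 0.540 to 2.37 in WT and from 0.531 to 1.09 in TKO. The listed genes called with regions as blocks numbered 4 with DESeq2, against 0; over all genes DESeq2 called 128 higher and 214 lower, edgeR 10 and 8, edgeR with total counts 12 and 44, and edgeR without the left ventricle, infarct, border, or remote region 20 and 63, 5 and 1, 5 and 0, and 3 and 0. Total counts alone shifted the median of all genes between genotypes in the infarct zone by -0.29 on the log2 scale and turned the 2-fold split there to 116 higher and 491 lower, against 314 and 189; against the left ventricle, the infarct zone split became 5578 and 499 in WT and 3879 and 207 in TKO, against 2446 and 1927 and 2112 and 991. Cardiac muscle genes as library size shifted that median by -1.07, -0.31, and -0.25 between genotypes in the infarct, border, and remote zones, with splits of 31 and 7514, 88 and 827, and 95 and 540, against 314 and 189, 160 and 423, and 152 and 307. Against the left ventricle, these shifts were 2.12, 0.45, and 0.36 in the WT infarct, border, and remote zones, with splits of 11387 and 25, 1661 and 95, and 988 and 172, and 1.02 in the TKO infarct zone, with 6770 and 89. Over the scalings, the TKO over WT ratio in the remote zone ranged from 0.329 to 0.395 for *Myl7* and from 0.121 to 0.145 for *Bmp10*. Other scalings of the remote zone amounts were chosen after the data were seen, and the lowest percentages, with cardiac muscle genes as library size, were 31.0% for *Myl7* and 11.9% for *Bmp10*. TKO and WT were paired by region in the fit with regions as blocks. No paired analysis was possible by replicate number because each group holds 1 library and the labels give no such numbers. Precision is limited by counting for *Bmp10*, *Sln*, and *Mybphl* in the left ventricles and in the TKO infarct zone (6 to 49 counts).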
